A study of Mus musculus with 5 samples.

Results

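The T lineage commitment genes are 10 genes that developing thymocytes switch on as they become T cells: the transcription factor genes Bcl11b, Gata3, Tcf7 and Lef1, the receptor genes Il2ra, Ptcra and Thy1, and the CD3 chain genes Cd3e, Cd3d and Cd3g. They were read in LT-HSCs, the long-term repopulating stem cells of mouse blood, which are not T lineage cells, from every probe set of an Affymetrix mouse array that the platform annotation gave to a member alone. Of the 10 genes, 9 had such probe sets, 14 in all, out of 18193 genes measured. No probe set was named for Tcf7, so its expression was not analysed here.

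LT-HSCs came from C57BL/6 mice aged 4 weeks. The 3 Lrf knockout arrays were from Zbtb7a Flox/Flox Mx1-Cre+ mice and the 2 control arrays from Zbtb7a Flox/+ Mx1-Cre+ mice, so the controls also carried Cre and a floxed allele and count as heterozygous for Lrf. All mice received 2 injections of 250 µg pIpC, an RNA analogue that switches on the interferon-responsive Mx1 promoter and with it Cre in every cell that answers interferon, not in stem cells alone. Cells were sorted 9 days after the first injection as lineage-negative Sca-1+ Kit+ cells that were IL7Ra-, Flt3-, CD48- and CD150+. The description of knockout replicate 3 named 2 animals, so it may be a pool, and p-values measure the spread between these libraries.

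T cell commitment begins when Notch receptors on a thymus-seeding progenitor meet their ligands on the thymic stroma. Notch input turns on Tcf7 and Gata3, these help to open Bcl11b, and Bcl11b then closes off stem cell, myeloid and natural killer programmes while genes of the pre-T cell receptor come on. LRF, the repressor encoded by Zbtb7a, is known in mice to keep Notch-driven T cell fate in check in bone marrow progenitors and stem cells. Setting knockout against control arrays asks what losing Lrf does to the transcripts of these stem cells.

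Promoter sequences are shown for Bcl11b, the member with the largest difference, and for Cd3g and Cd3d, neighbours on chromosome 9 that face away from each other with 1355 bases between their starts and that ordered the arrays differently. They are RefSeq sequences of build GRCm38.p6, 250 bases before to 50 after the annotated start, in the direction of the gene: Bcl11b from chr12:108003365-108003664 (minus strand), Cd3g from chr9:44980382-44980681 (minus strand) and Cd3d from chr9:44981536-44981835 (plus strand). Capitals mark CTTTGA for TCF and LEF factors, AGATAA for GATA factors, TGGGAA for RBPJ (the DNA-binding partner of Notch), TGTGGT for RUNX factors and CAGGTG for an E-box bound by E proteins, searched on both strands, and no matches overlapped.
Bcl11b: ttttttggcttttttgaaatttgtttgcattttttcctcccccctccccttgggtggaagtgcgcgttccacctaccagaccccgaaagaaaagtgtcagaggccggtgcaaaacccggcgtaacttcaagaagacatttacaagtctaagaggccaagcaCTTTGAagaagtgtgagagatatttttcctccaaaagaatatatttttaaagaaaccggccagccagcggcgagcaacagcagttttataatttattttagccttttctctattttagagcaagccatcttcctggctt
Cd3g: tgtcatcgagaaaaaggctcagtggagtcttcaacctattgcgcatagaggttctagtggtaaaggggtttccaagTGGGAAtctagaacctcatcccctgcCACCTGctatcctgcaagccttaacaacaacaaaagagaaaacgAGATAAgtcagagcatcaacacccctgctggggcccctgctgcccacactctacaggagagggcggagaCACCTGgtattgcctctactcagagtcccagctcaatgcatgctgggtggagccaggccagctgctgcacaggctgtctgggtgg
Cd3d: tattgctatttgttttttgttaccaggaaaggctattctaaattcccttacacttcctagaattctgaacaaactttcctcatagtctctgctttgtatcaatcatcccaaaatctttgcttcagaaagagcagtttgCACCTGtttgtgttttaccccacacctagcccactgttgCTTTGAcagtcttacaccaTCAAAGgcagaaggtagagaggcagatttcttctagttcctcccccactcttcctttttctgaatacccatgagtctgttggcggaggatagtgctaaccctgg
The Bcl11b window held a single match, CTTTGA, which 16.0% of 32851 promoters of this length also hold. Cd3d held CTTTGA at 2 places and CAGGTG (as CACCTG) once. Cd3g held AGATAA once, TGGGAA once and CAGGTG (as CACCTG) at 2 places. AGATAA occurs in 11.2% of all promoters, TGGGAA in 25.6%, TGTGGT in 16.8% and CAGGTG in 20.2%. Over the 13 promoters listed for 9 members, CTTTGA was in 3, AGATAA in 2, TGGGAA in 6, CAGGTG in 5 and TGTGGT in 0. By gene, TGGGAA was in 4 of the 9. The Lef1 windows that start at 131110047 and 131110073 overlap and hold the same TGGGAA site, so the count of 6 includes that site more than once. Thy1 had no entry and Tcf7 did, so these 9 members are not the 9 measured on the arrays. A match in letters is not a binding site.

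The arrays had nearly equal median log2 intensities (6.38 to 6.40). Knockout replicate 2 stood apart, with correlations of 0.945 to 0.970 to the other arrays over 45037 probe sets, against 0.977 to 0.990 among the rest. The targeted gene did not separate the groups: its brightest probe set read 8.72, 8.33 and 9.06 in the 3 knockout arrays, against 8.22 and 8.36 in the controls (log2 difference 0.41, SE 0.26; exact two-sided permutation p = 0.3, against a smallest possible 0.1), and its other 2 probe sets differed by -0.36 and -0.05. The position of these probes relative to the deleted part was not analysed here, so they check nothing. Transcripts of the sorted cell type were present. Kit read 11.34, 9.60 and 11.48 in knockout replicates 1, 2 and 3, against 11.12 and 11.82 in the controls. Mecom read 10.84, 8.38 and 11.17 in the same knockouts, against 10.70 and 11.68 in the controls. The low value of each was that of knockout replicate 2.

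Over 27022 probe sets past a filter that left out the dimmest 40% (mean log2 intensity up to 5.77), limma called 0 at an adjusted p under 0.05 (0%). The unadjusted p was under 0.05 for 306 (1.13%), with 1 member probe set, the brightest of Bcl11b, among them. No T lineage commitment gene therefore passed, each with an adjusted p = 1, and every difference below is a measured value on the log2 scale, not a called change. Of the 9 measured members 7 passed the filter. Ptcra lay just below it, with a mean over all arrays of 5.76, and Cd3g clearly below at 4.89, so their values are close to background.

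All 9 measured members read higher on average in knockouts, with a median log2 difference of 0.36 over their brightest probe sets. For Gata3, Lef1, Thy1 and Cd3d that sign rests on 1 array, and members were chosen with earlier results of these data known. Over all 18193 genes 47.3% had a difference above 0, and the median was -0.0082. Among the 7 members past the filter the median was 0.33, against -0.030 over 12813 genes, 43.7% of which lay above 0; Il2ra passed the filter through knockout replicates 1 and 2 alone, so this median is no support for a difference. Knockout and control values did not overlap for 2 of the 9 members, Bcl11b and Cd3g, both higher in knockouts (22.2%, against 2.92% of all genes in that direction and 3.74% in the other). The difference was above 0 on all 14 member probe sets, against 50.1% of all probe sets; 4 of the 14 belong to Bcl11b and are not separate genes. In whole-population RNA of this kind, a few cells with much transcript and many cells with little cannot be told apart, nor can fewer cells of a type and less RNA per cell.

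**Figure D1:**
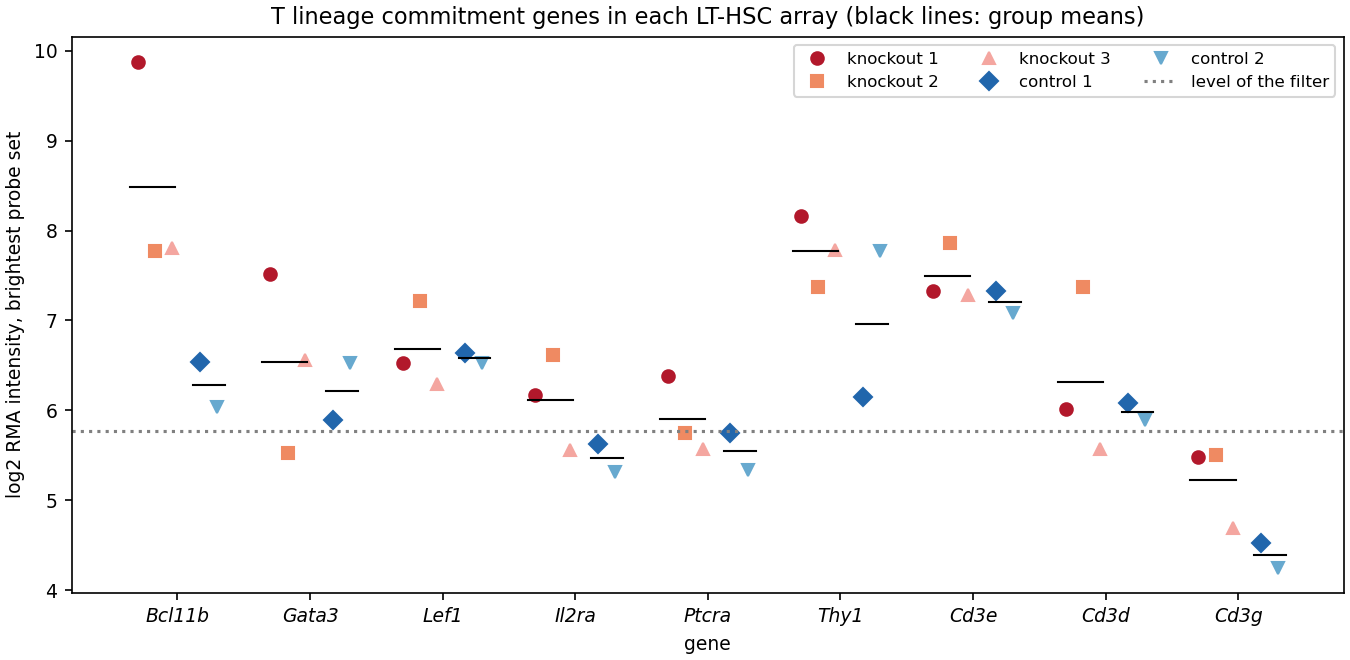
Log2 RMA intensity of the brightest probe set of each measured member in the 3 Lrf knockout arrays (red shades) and the 2 control arrays (blue shades), with black lines at the group means and a dotted line at the filter level of 5.77. Bcl11b is the member with the widest gap between the groups, with 7.77 in its lowest knockout array against 6.54 in its higher control.

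Bcl11b, the zinc finger factor that completes T cell commitment, had the largest difference of the members. Its brightest probe set read 9.87, 7.77 and 7.80 in knockout replicates 1, 2 and 3, against 6.54 and 6.03 in controls 1 and 2. All 3 knockout arrays lay above both controls, and knockout replicate 1 lay further above the other knockouts than these lay above the control mean. The means were 8.48 ± 1.21 (SD, n = 3) in knockouts and 6.28 ± 0.36 (SD, n = 2) in controls. This is a log2 difference of 2.20 (limma SE 0.75, adjusted p = 1), or 4.59-fold. The exact two-sided permutation p was 0.1, the smallest that 3 against 2 arrays allow. The difference was 1.50 without knockout replicate 1 and lay between 1.95 and 2.55 without any other array.

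Groups did not overlap on the other 3 Bcl11b probe sets either, with exact two-sided permutation p-values of 0.2 for 1450339_a_at, 0.1 for 1438784_at and 0.3 for 1452966_at. Probe set 1450339_a_at read 8.42, 6.24 and 6.59 in the knockouts, against 5.73 and 5.54 in the controls (difference 1.45, SE 0.71; 0.78 without knockout replicate 1). Both control values lay below the filter level of 5.77, so this probe set passed the filter through the knockout arrays alone. Probe set 1452966_at, whose mean lay below the filter, read 7.31, 5.24 and 5.39 in the knockouts, against 4.91 and 4.35 in the controls (difference 1.35; 0.69 without knockout replicate 1). Probe set 1438784_at read 6.36, 6.46 and 6.10 in the knockouts, against 6.00 and 5.47 in the controls (difference 0.57, SE 0.23; 0.31 without control replicate 2). Its control mean of 5.74 also lay below the filter level. On 3 of the 4 probe sets knockout replicate 1 was highest, and on 1438784_at knockout replicate 2 was. Groups did not overlap on 4 of 4 probe sets, and in that direction 3.61% of all 45037 probe sets did not overlap. Probe sets of a gene share the same RNA and are not replicates. Control replicate 2 was lowest on each of them.

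**Figure D2:**
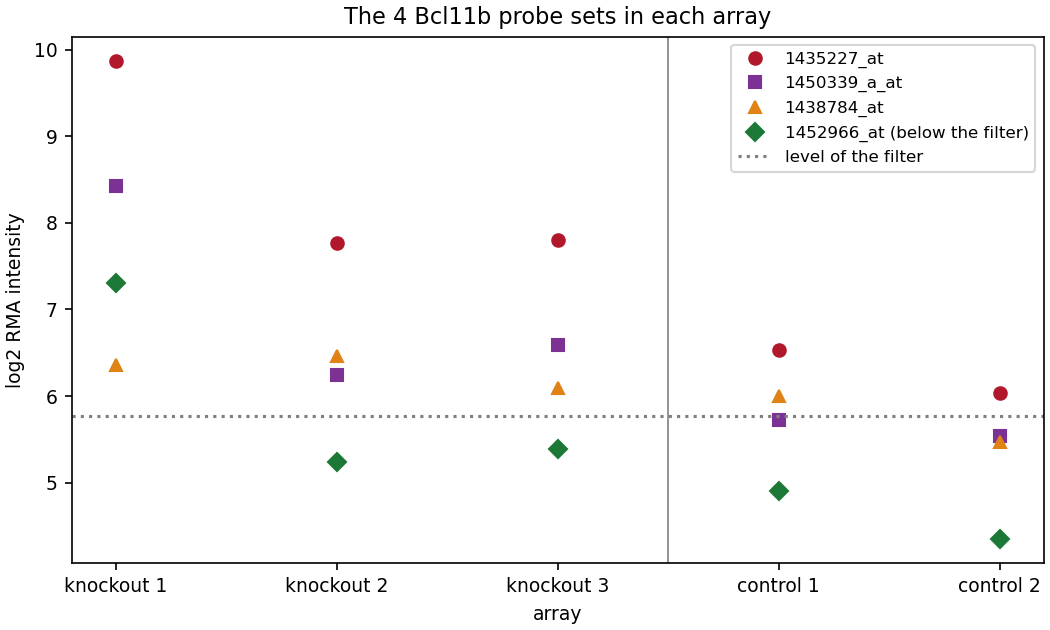
Log2 RMA intensity of the 4 Bcl11b probe sets in each array, knockouts left of the line and controls right of it, with a dotted line at the filter level of 5.77. On each probe set all 3 knockout points lie above both control points, and knockout replicate 1 reads 9.87 on the brightest.

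Gata3, a zinc finger factor needed from the earliest thymocyte stage and also active in stem cells, did not follow the groups. It read 7.52, 5.52 and 6.56 in knockout replicates 1, 2 and 3, against 5.89 and 6.53 in the controls. Knockout replicate 1 was the highest of the 5 arrays and knockout replicate 2 the lowest. The difference of 0.32 (SE 0.64) became -0.17 without knockout replicate 1 and 0.83 without knockout replicate 2. Without control replicate 1 it was 0.0028.

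Lef1, an HMG-box factor closely related to Tcf7 that acts in early thymocytes, read 6.53, 7.21 and 6.29 in the knockouts, against 6.63 and 6.53 in the controls. Only knockout replicate 2 lay above both controls, and knockout replicate 3 was the lowest array. The difference was 0.097 (SE 0.31) and -0.17 without knockout replicate 2. The dim second probe set of Lef1 read 4.13 to 4.36 in all arrays, with a difference of 0.073.

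Of the receptor genes, Thy1 encodes the surface glycoprotein Thy-1, a marker of T cells that some progenitors also carry. It read 8.16, 7.37 and 7.79 in the knockouts, against 6.15 and 7.77 in the controls. The groups overlapped, and control replicate 1 stood alone at the low end. The difference was 0.81 (SE 0.55), but -0.0025 without control replicate 1 and 1.62 without control replicate 2.

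Il2ra encodes CD25, the interleukin 2 receptor chain that marks thymocytes at the stage of commitment. It read 6.17, 6.62 and 5.56 in the knockouts, against 5.62 and 5.31 in the controls, so knockout replicate 3 lay among the controls. The difference was 0.65 (SE 0.35; 0.40 without knockout replicate 2). Its dimmer probe set read 5.32, 5.52 and 5.29 in the knockouts, against 5.52 and 5.19 in the controls, a difference of 0.027. The 2 probe sets of Il2ra thus did not show the same gap.

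Ptcra encodes pre-T alpha, the chain that pairs with the rearranged beta chain before the alpha chain is made. It read 6.38, 5.75 and 5.57 in the knockouts, against 5.75 and 5.34 in the controls. Knockout replicate 1 alone lay above both controls, since knockout replicate 2 and control replicate 1 held the identical value. The difference was 0.36 (SE 0.31 in the fit with no filter; 0.11 without knockout replicate 1 and 0.15 without control replicate 2).

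The CD3 chains carry the signal of the T cell receptor into the cell. Cd3g, for CD3 gamma, read 5.48, 5.50 and 4.69 in the knockouts, against 4.52 and 4.25 in the controls. The groups did not overlap, with knockout replicate 3 close to control replicate 1. The difference of 0.84 (SE 0.31 in the fit with no filter, adjusted p = 1) kept a size of 0.70 to 1.10 as single arrays were left out, and the exact permutation p was 0.2. All 5 values lay below the filter level, so its size is uncertain.

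Cd3d, for CD3 delta, read 6.02, 7.37 and 5.58 in the knockouts, against 6.08 and 5.89 in the controls. Knockout replicate 2 was far above the rest, and knockout replicate 3 was the lowest array. The difference of 0.33 (SE 0.57) became -0.19 without knockout replicate 2 and 0.71 without knockout replicate 3. Cd3e, for CD3 epsilon, read 7.33, 7.86 and 7.28 in the knockouts, against 7.33 and 7.08 in the controls, with knockout replicate 2 again highest. Its difference was 0.28 (SE 0.24), and 0.098 without knockout replicate 2 and 0.16 without control replicate 2.

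**Figure D3:**
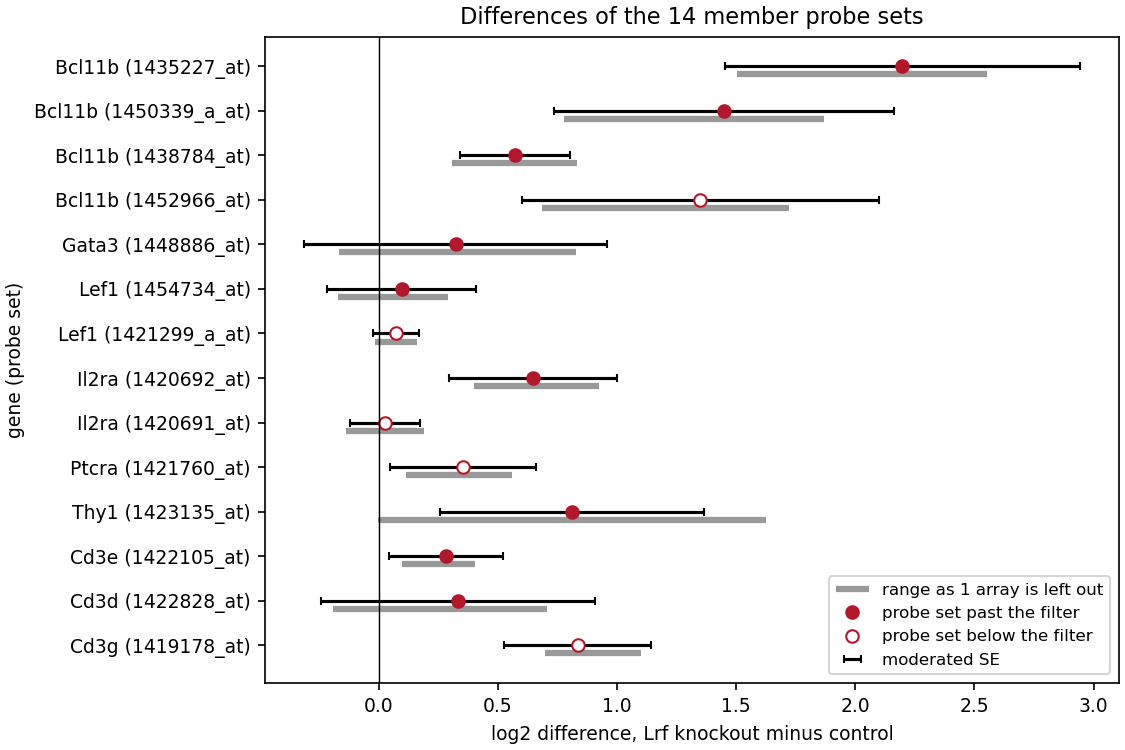
Log2 difference, Lrf knockout minus control, of the 14 member probe sets, with the moderated standard error (black bars; from the fit with no filter for open points) and the range of the difference as single arrays were left out (grey bars). Grey bars stay above 0 for the 4 Bcl11b probe sets, the brighter Il2ra probe set, Ptcra, Cd3e and Cd3g, and reach below 0 for Gata3, Lef1, the dimmer Il2ra probe set, Thy1 and Cd3d.

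The members differed in which array was highest. Bcl11b, Gata3, Ptcra and Thy1 were highest in knockout replicate 1, and Lef1, Il2ra, Cd3e, Cd3d and, by a narrow margin, Cd3g in knockout replicate 2. Knockout replicate 3 was highest for 0 of the 9 and a control for 0. Of the 7 members past the filter, which leaves out Ptcra and Cd3g, 3 were highest in knockout replicate 1, 4 in replicate 2 and 0 in replicate 3. Over 12813 genes past the filter 14.4% were highest in knockout replicate 1, 26.2% in replicate 2 and 19.6% in replicate 3. Relative to the control mean, the median of the 9 measured members was at 0.84, 0.65 and 0.097 in knockout replicates 1, 2 and 3. Without knockout replicate 2, 7 of the 9 stayed positive, and without knockout replicate 1, 8 of the 9 did.

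Lists of other cell types differed most in knockout replicate 2, and 0 of their genes were called by limma. Of 9 B cell markers past the filter, 9 were highest in knockout replicate 2, where their median difference from the control mean was 1.93, while it was -0.41 and -0.28 in knockout replicates 1 and 3. Their median level was 6.52, 9.71 and 6.35 in knockout replicates 1, 2 and 3, against 7.87 and 6.84 in the controls. Ms4a1, which encodes the B cell surface protein CD20, read 11.49 in knockout replicate 2 and 6.12 to 8.24 elsewhere. In the same array mast cell and basophil markers had a median difference of 2.63 (4 of 5 highest there), and natural killer and innate lymphoid markers of 0.96 (6 of 8 highest there). Klrd1 of the latter and the B cell markers Ebf1 and Blk passed the filter through their values in this array (9.55, 9.38 and 7.43). Their part in these medians and counts is thus no separate result. For stem cell markers these medians were -0.098, -2.26 and 0.18 in knockout replicates 1, 2 and 3. The part of such cells in the Cd3d, Cd3e, Lef1 and Il2ra values of knockout replicate 2 was not tested.

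**Figure D4:**
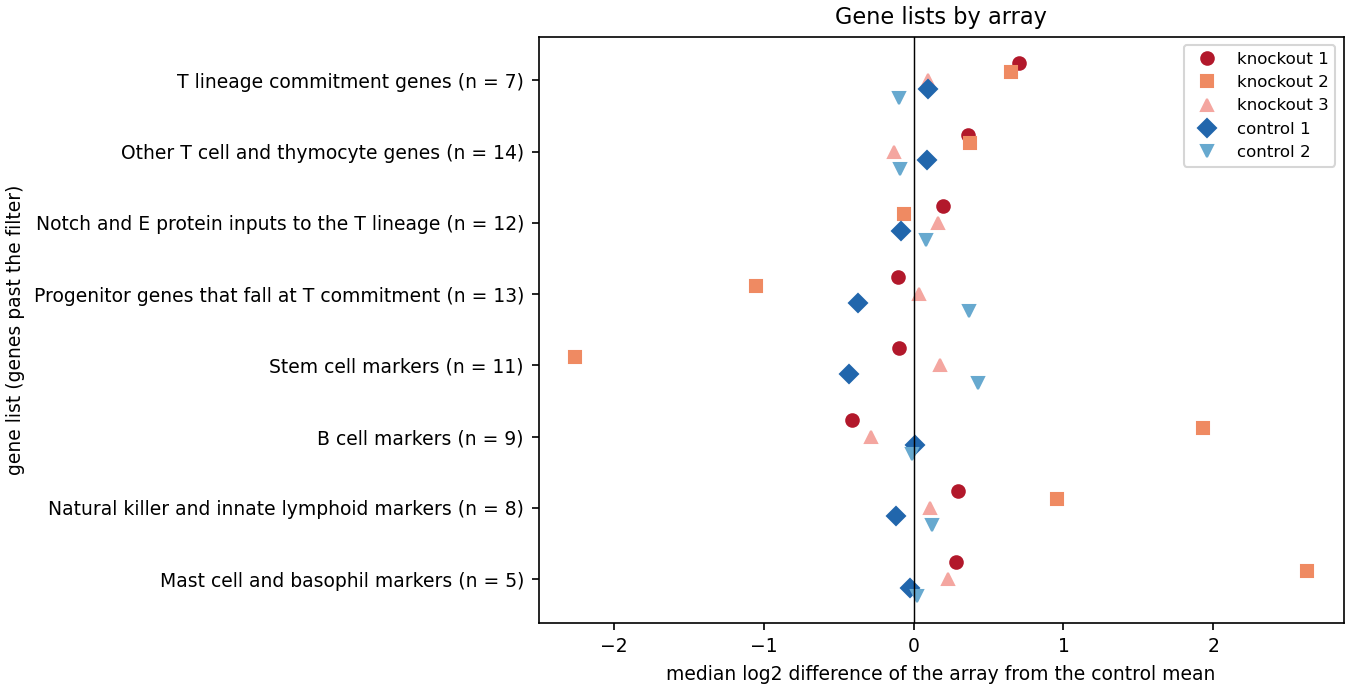
Median over each gene list of the array's log2 difference from the control mean, for the genes past the filter (n in brackets), in knockout arrays (red shades) and control arrays (blue shades). The T lineage commitment genes lie at 0.70, 0.65 and 0.097 in knockout replicates 1, 2 and 3, and in knockout replicate 2 the B cell and mast cell markers lie at 1.93 and 2.63 and the stem cell markers at -2.26. The 0.70 and 0.097 are the values of Il2ra, which passed the filter through knockout replicates 1 and 2 alone.

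Genes whose pattern over the arrays lay closest to that of Bcl11b were also found. The measure was the root mean square difference over the 5 arrays between centred log2 values, so arrays and groups are shared by construction. Trbv1, a variable segment of the T cell receptor beta locus, was nearest at 0.41, with 10.01, 8.65 and 8.28 in the knockouts, against 6.19 and 6.10 in the controls. The next were Ifit3 at 0.45, Irf7 at 0.46, Usp18 at 0.49 and Ifi213 at 0.50, all interferon-induced genes. Ifit3 read 10.53, 8.01 and 7.63 in the knockouts, against 7.13 and 7.22 in the controls. Irf7, which encodes a factor that amplifies the interferon response, read 10.64, 9.06 and 8.42 in the knockouts, against 8.28 and 7.73 in the controls. These 5 genes were picked for being high where Bcl11b is, so their height in knockout replicate 1 is no separate result, and the part of an interferon response in the Bcl11b values was not tested.

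**Figure D5:**
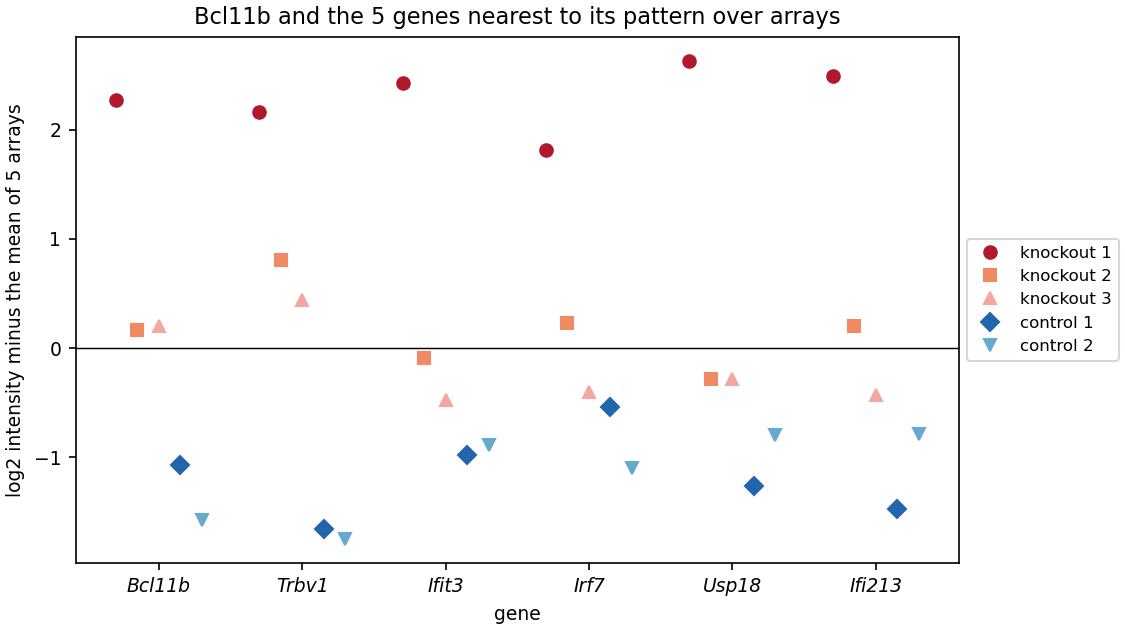
Log2 RMA intensity minus the mean of the 5 arrays for Bcl11b and the 5 genes nearest to it, in knockout arrays (red shades) and control arrays (blue shades). Knockout replicate 1 is the highest array for each gene, and the root mean square differences from Bcl11b run from 0.41 for Trbv1 to 0.50 for Ifi213.

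Other T cell and thymocyte genes had 24 listed members, of which 21 were measured and 14 passed the filter. Of these, 11 were positive and 3 negative, 0 were called by limma (0 also had an unadjusted p under 0.05), and the median difference was 0.22. Cd6, a surface receptor of T cells, read 7.09, 6.90 and 6.89 in the knockouts, against 6.27 and 6.70 in the controls (difference 0.48, SE 0.19; 0.26 without control replicate 1), and was the single member of the list whose groups did not overlap (2.68% of genes past the filter were higher in this way). Ccr9, the chemokine receptor that guides progenitors into the thymus, was also highest in knockout replicate 1 but lowest in knockout replicate 3, at 9.15, 7.93 and 5.99 in the knockouts, against 6.42 and 6.06 in the controls (difference 1.45, SE 0.96; 0.72 without knockout replicate 1 and 2.30 without knockout replicate 3). Themis, a thymocyte signalling protein, read 7.64, 6.40 and 6.05 in the knockouts, against 6.40 and 5.74 in the controls (difference 0.63, SE 0.55; 0.16 without knockout replicate 1 and 0.30 without control replicate 2). Cd4, the coreceptor of helper T cells, had a difference of -0.30 (SE 0.20; -0.093 without control replicate 1). Ets1, a factor gene and by a narrow margin the probe set with the highest mean of the list, had a difference of 0.38, but -0.12 without knockout replicate 2 and -0.29 without control replicate 2. The 7 genes below the filter were Cd2, Cd28, Cd5, Cd8b1, Skap1, Tox and Trat1.

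Notch and E protein inputs to the T lineage had 12 of 12 genes past the filter, 7 positive and 5 negative, with a median difference of 0.032 and 0 called by limma (1, Hes1, had an unadjusted p under 0.05). Groups did not overlap for 2 of the 12 genes, Hes1 and Notch3, both higher in knockouts (against 2.68% of genes past the filter). For the receptor gene Notch3 they came close, at 7.57 in knockout replicate 2 against 7.44 in control replicate 2. Hes1, a repressor gene that Notch turns on directly, read 8.25, 7.88 and 8.23 in the knockouts, against 7.35 and 6.99 in the controls (difference 0.95, SE 0.21). It was about equally high in all 3 knockout arrays, replicate 3 included. Dtx1 and Nrarp of the same list did not separate the groups. Dtx1 differed by 0.40, and 0.073 without knockout replicate 2, and Nrarp by -0.065. Rbpj, for the DNA-binding partner of Notch, differed by -0.24 (SE 0.20), and the brightest gene, the factor gene Myb, by 0.048. Progenitor genes that fall at T commitment, such as Tal1 and Lmo2, had 1 positive and 12 negative of 13, a median of -0.35 and 0 called by limma (0 at an unadjusted p under 0.05). Their median was -0.046 without knockout replicate 2, with 4 of 13 positive. Tal1, a stem cell and erythroid factor gene, was lower without overlap (as were 4.5% of genes past the filter), at 11.24, 10.77 and 11.35 in the knockouts, against 11.59 and 11.49 in the controls (difference -0.42, SE 0.23; -0.24 without knockout replicate 2).

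Of the genes of the sort gate, Il7r and Cd48, whose proteins the sort excluded, averaged higher in knockouts, and Kit and Slamf1 (CD150), whose proteins it required, averaged lower; none was called by limma. Without knockout replicate 2 the Kit difference was -0.060, with -0.66 over all arrays, and that of Slamf1 was -0.23, with -0.86 over all arrays; Cd48 stood at 0.23 without that array and 0.73 with it. Il7r read 9.35, 10.50 and 7.44 in the knockouts, against 6.21 and 7.30 in the controls. Its difference was 2.34 (SE 0.98), and 1.64 without knockout replicate 2. The groups did not overlap (as for 2.68% of genes past the filter in that direction), with knockout replicate 3 close to control replicate 2. Il7r was highest in knockout replicates 2 and 1, in that order, as was the brighter Il2ra probe set. Cd3g had the same order only by a narrow margin (5.50 against 5.48), with all its values below the filter level. Slamf1 read 8.06, 6.60 and 8.95 in the knockouts, against 8.30 and 9.16 in the controls, and was lowest in knockout replicate 2. Flt3, whose protein the sort also excluded, differed by -0.38, opposite in sign to Il7r and Cd48 (0.17 without control replicate 2). Ly6a, the gene of Sca-1, was not analysed here.

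Of the 14 member probe sets, 4 held values that were identical in a pair of arrays: both of Lef1, that of Ptcra and that of Cd3e. Among all probe sets this was so for 26.9% of those past the filter and 66.2% of those below it. In each of the 4 a knockout array was tied with a control, knockout replicate 2 for Ptcra and knockout replicate 1 for the others. The tied knockout thus read no higher than that control.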

How the data were processed

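LT-HSC RNA was amplified in 2 rounds of in vitro transcription, per the labels' protocols, so signal comes mainly from 3' ends. Log2 intensities per probe set were deposited; the submitters' processing notes name RMA and Affymetrix Expression Console (versions: not given in the sources used here). This method gives all arrays a common distribution, which removes shifts shared by most genes and compresses dim values. Of 45101 probe sets, 45037 were not Affymetrix controls; the annotation gave 34945 of these a single symbol, 932 several and 9160 none. The brightest single-symbol probe set stood for a gene.

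The dimmest 40% were left out, and 27022 probe sets were fitted with limma 3.58.1 in R 4.3.3 (lmFit and eBayes, no covariate, 3 knockout against 2 control arrays, two-sided, Benjamini-Hochberg over all). Standard errors are moderated. Exact permutation tests used the absolute difference of means over 10 splits. The fit was tested on simulated data. Members, lists and rules were chosen with earlier results of these data known. Named were all members, Zbtb7a, sort gate genes, up to 3 genes of smallest p and the brightest of each described list, and the 5 genes nearest to Bcl11b; others, such as Ms4a1, were chosen after their values were seen. Alternatives were other filters (none, 60%), a trended robust prior, weighted arrays, cyclic loess or median centring, averaged probe sets, the replicate number as a block, and dropping each array. Figures used matplotlib 3.10.9. The number of arrays limits the precision.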

Additional observations from a re-analysis of the deposited data

How the results depend on the processing

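Under all alternatives except averaged probe sets, for which calls were not counted, limma called 0 probe sets. The median log2 difference of the T lineage commitment genes past the filter was 0.33 and stayed above 0 under all alternatives. It lay between 0.40 and 0.71 when any 1 array was dropped. Il2ra passed the filter through knockout replicates 1 and 2 alone, and 0.40 is its own value without knockout replicate 2. The sign of this median over settings is therefore no support for a difference. The median was 0.81 with the 60% filter, which left 3 members (Bcl11b, Thy1 and Cd3e), and 0.71 with the replicate block. These moved it by more than the SD of the members' median over knockout arrays. Shared replicate numbers did not mark shared animals or days in the labels, so the block is no known pairing. Deviations of same-numbered arrays from their group means had correlations of -0.54 and -0.57. The deviations of 2 controls mirror each other, so these correlations cannot decide whether arrays were paired. Since only knockouts had a replicate 3, the block gave the same median as leaving that array out. Bcl11b ranged from 1.39 to 3.30 under other settings (3.30 with array weights) and had an adjusted p of 0.856 to 1. Gata3 ranged from -0.17 to 0.83, Lef1 from -0.17 to 0.29, Thy1 from -0.0025 to 1.62 and Cd3d from -0.19 to 0.71 over the fits that dropped 1 array, so the sign of each rests on 1 array. Lef1 was -0.064 with array weights. The cause was not tested for these. Among the other lists, the median of B cell markers was -0.25 without knockout replicate 2 and -0.28 with array weights, against 0.50 with all arrays.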
